A study of Mus musculus with 9 samples.

Results

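The promoter amplicon Cdkn1c_1 of the mouse gene Cdkn1c (gene ID 12577) was described by its CpG methylation in embryonic heart muscle cells. Its members are the CpG sites listed under that region name (Cdkn1C in the files' spelling) with at least 30 reads in each of the 9 libraries, which were 52 of the 310 CpG sites that met this minimum over all 26 regions with reads. Of the 55 CpG sites listed in the amplicon, 3 at its far end, at offsets 391, 394 and 396, were left out, with 19 to 55, 6 to 20 and 1 to 14 reads. A second region of the gene, Cdkn1c_2, lists 12 CpG sites and had 0 reads over the 9 libraries. The gene lies on chromosome 7 at 143458339 to 143461059 in GRCm38.p6. The files place sites by an offset in base pairs within the amplicon, so no chromosome position of a site, and no annotation of exon or untranslated sequence, is given.

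Cdkn1c encodes p57, a member of the Cip/Kip family of proteins that bind and inhibit cyclin-dependent kinases and so restrain cell division. The gene is imprinted: the copy inherited from the mother is the active one, under the control of a neighbouring imprinting centre that drives the long non-coding RNA Kcnq1ot1 from the paternal chromosome. In the mouse, the promoter of the paternal copy gains CpG methylation after implantation of the embryo, and p57 is expressed in the developing heart. The enzymes DNMT3a and DNMT3b place methyl groups on CpG sites that carry none, whereas DNMT1 copies existing methylation at each round of replication.

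Primary cardiomyocytes came from ventricles of CD-1 embryos at embryonic day 13.5, pooled by litter, and were grown for 48 h. All cells then received 0.012 pmol of siRNA by lipofection: a pool of 4 siRNAs against DNMT3a, a pool of 4 against DNMT3b, or a negative control siRNA, with 3 libraries per group. DNA was taken 72 h later from cells sorted magnetically for VCAM1, converted with bisulfite, which makes unmethylated C read as T, amplified, pooled at equal concentration and sequenced. Each value is thus an average over a sorted population, in which fewer methylated cells and less methylation per cell cannot be told apart, and neither can the 2 parental copies. Transcript levels and knockdown efficiency were not analysed here. No cell type marker was measured, so the cell type is given as labelled.

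The amplicon spans 145 listed cytosines, 55 in CpG, 35 in CHG and 55 in CHH context (H is A, C or T), from offset 9 to offset 422. The listing gives each cytosine with the 2 bases that follow it, and these overlapping triplets spell 294 of 424 letters without a clash. The letters not given are written n below, and capitals mark each CpG. The stretches were chosen after their values were seen, to show where methylation was high, low and high again along the listed strand, 5′ to 3′. Its orientation to the gene is not given by the listing.
Offsets 40 to 133: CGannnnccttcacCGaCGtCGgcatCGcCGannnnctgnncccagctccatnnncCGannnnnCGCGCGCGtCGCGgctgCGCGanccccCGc
Offsets 151 to 197: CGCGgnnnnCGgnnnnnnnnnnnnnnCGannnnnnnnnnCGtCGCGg
Offsets 258 to 315: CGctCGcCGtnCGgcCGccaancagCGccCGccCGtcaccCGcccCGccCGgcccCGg

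In negative siRNA the 16 CpG sites of the stretch at 40 to 133 averaged 31.7% ± 3.56 of reads with C (SD over 3 libraries, as throughout), with site means of 19.5% to 46.6%. The 7 sites at 151 to 197 averaged 9.34% ± 2.09, and their site means were 6.76% to 11.6%. The 12 sites at 258 to 315 averaged 27.4% ± 4.24, with site means of 16.9% to 34.9%. The low stretch thus lies between the high ones. Where the sequence could be read, the letters CCGCCC, the core of the GC box bound by Sp-family factors, stood at 5 places between offsets 208 and 302. They stood in 5 of the 30 listed regions, or 16.7%, and at no more than 1 place in any other region. Regions differ in length, and only the listed strand was searched, because runs of G on it are among the unlisted letters. The 5 CpG sites within these letters were at 21.1% ± 2.93 in negative siRNA, and the other sites of the amplicon at 23.5% ± 2.96.

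**Figure D1:**
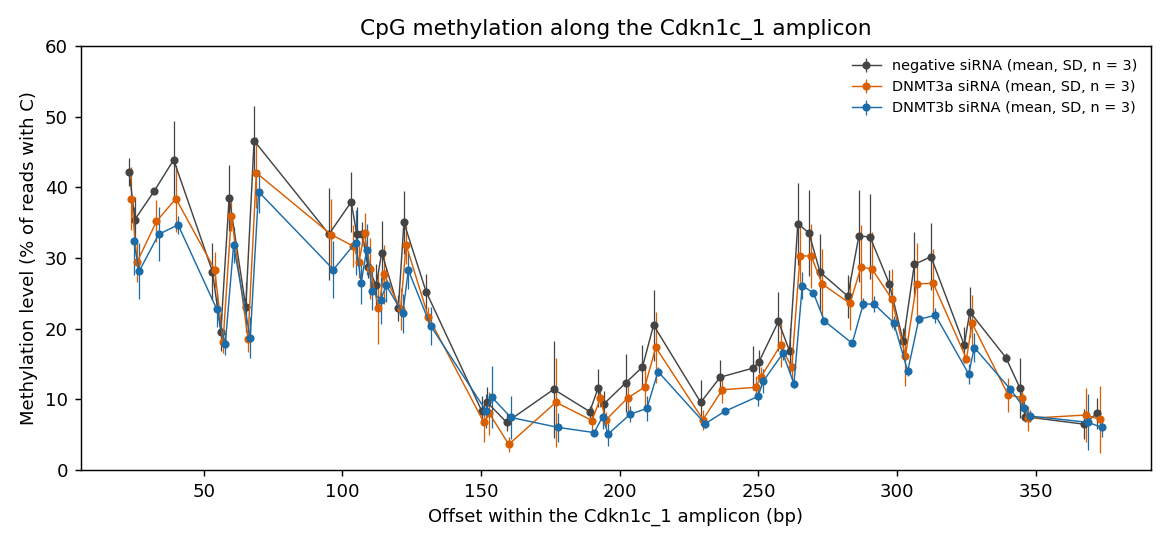
Methylation level (percent of reads with C) of each of the 52 CpG sites against its offset in the amplicon, as mean and SD of 3 libraries for negative, DNMT3a and DNMT3b siRNA. All 3 groups share a high start, a low middle from offset 151, a second high run from offset 265 and a low end after offset 340.

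The level of the amplicon, the mean over its 52 sites, was 25.8%, 23.9% and 20.0% in negative siRNA replicates 1, 2 and 3 (mean 23.2% ± 2.95). This placed it at rank 16 from the highest among the 26 regions. The neighbours in that order, Myh7b_1 at 29.3% and Mef2d_2 at 16.0%, lay further from it than its own SD. Of the other Cip/Kip genes, the promoter region of Cdkn1a (p21) was at 60.3% ± 1.86 and that of Cdkn1b (p27) at 0.287% ± 0.0057. The 3 family members therefore stood at high, intermediate and near-zero levels in the same libraries.

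Single sites ranged widely within the amplicon. The most methylated was offset 69, at 50.6%, 48.0% and 41.2% in the negative siRNA replicates, followed by offset 40, at 49.2%, 44.1% and 38.4%, and offset 24, the first tested, at 40.6%, 41.5% and 44.4%. All of these lie in the first part of the amplicon. The least methylated were offset 368, at 8.96%, 5.49% and 5.06%, offset 160, at 6.98%, 7.92% and 5.38%, and offset 347, at 8.39%, 7.01% and 7.23%. The last tested site, offset 373, was at 6.88%, 10.6% and 6.67%. In negative siRNA 17 sites had a mean over 30%, 26 had 10% to 30% and 9 were under 10%, and 0 sites had a mean over 50%.

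The profile did not vary smoothly, and many steps between neighbours recurred in every library. Between offsets 66 and 69, 3 bp apart, the level stepped up by 23.5 points in negative siRNA and by 19.0 to 26.4 points in the 9 libraries. Offsets 57 and 60 differed by 19.0 points, or 13.0 to 20.9 by library, and offsets 262 and 265 by 18.0, or 12.3 to 21.8. These pairs were named after their values were seen. Of 51 pairs of neighbouring tested sites, 34 differed in the same direction in all 9 libraries. Across the 52 sites the profiles of any 2 libraries had a Pearson r of 0.919 to 0.976 (36 pairs), as a description only, since the sites share an amplicon and its reads.

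By the base that follows the CpG, the 7 sites read as CGA averaged 29.7% ± 4.53 in negative siRNA, the 25 CGC sites 22.5% ± 2.80, the 13 CGG sites 21.9% ± 2.61 and the 7 CGT sites 21.8% ± 2.80. The CGA sites were the highest class, and they also lay nearer to the start, with a median offset of 96 against 195 to 237 for the other classes. Sequence and position cannot be told apart here.

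Depth differed along the amplicon more than between libraries. The offset range was divided into 3 parts of equal length. The 19 sites of the first part (24 to 131) had 142 to 1226 reads, the 14 sites of the middle part (151 to 251) 63 to 7758, and the 19 sites of the last part (258 to 373) 75 to 7987. The shallowest tested value was offset 177 in DNMT3b siRNA replicate 2, at 4.76% of 63 reads (95% Wilson interval 1.63% to 13.1%). The deepest was offset 287 in negative siRNA replicate 2, at 33.1% of 7987 reads (interval 32.0% to 34.1%). These intervals cover counting error only, because reads copied from 1 molecule by PCR were not marked as such. Across sites the level had a Pearson r of 0.139 with the log10 of mean coverage, and low levels were found both at shallow sites, such as offset 368, and at deep ones, such as offset 230, at 9.57% ± 3.15 with 3062 to 7605 reads.

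**Figure D2:**
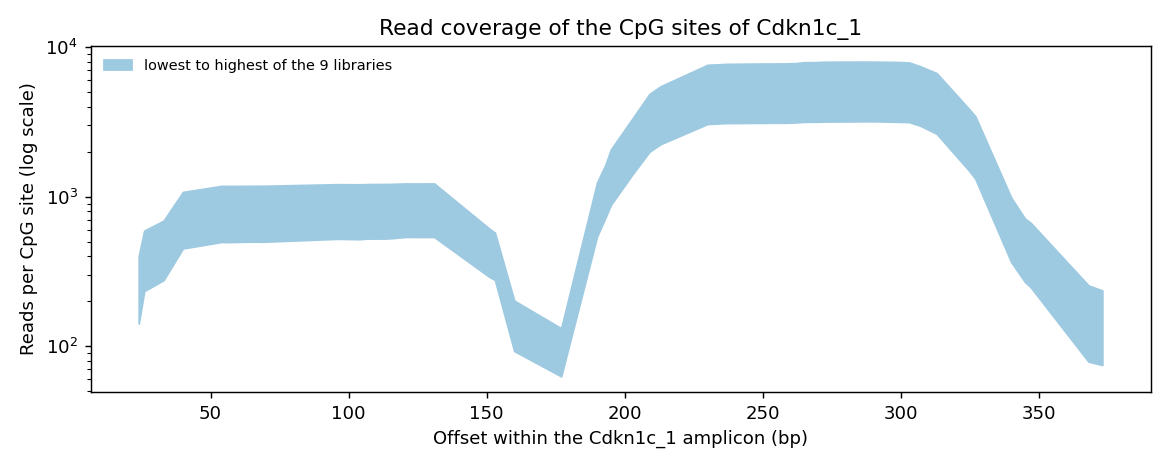
Reads per CpG site on a log scale against offset in the amplicon, as a band from the lowest to the highest of the 9 libraries. Coverage reached at most 1226 reads up to offset 131, had its lowest point at offset 177 and was at least 3062 reads in every library from offset 230 to offset 303.

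Cytosines outside CpG, where C mostly marks incomplete conversion, read as C in 0.338% ± 0.047 (negative siRNA), 0.306% ± 0.025 (DNMT3a) and 0.309% ± 0.0086 (DNMT3b) of the amplicon's reads. Every CpG site mean in negative siRNA, from 6.50% upward, stood well above this. Of 83 cytosines outside CpG with at least 30 reads in all libraries, 12 had more than 1% C over the pooled reads. The highest was offset 329, at 4.38% of 19756 reads and at 3.75% to 4.85% in single libraries.

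Some libraries of 1 group differed from each other along most of the amplicon. Negative siRNA replicate 3 was below replicate 1 at 49 of 52 sites and below replicate 2 at 47. DNMT3a siRNA replicate 1 was below replicate 3 at all but 4 sites and below replicate 2 at all but 7. Other pairs were nearer to even: DNMT3a siRNA replicate 2 was above replicate 3 at 35 sites, and DNMT3b siRNA replicate 1 was above replicate 2 at 26 and above replicate 3 at 37. DNMT3b siRNA replicate 2 was above replicate 3 at 37 as well, and negative siRNA replicate 1 was above replicate 2 at 40. The median SD of a site was 3.13 points in negative, 2.97 in DNMT3a and 1.70 in DNMT3b siRNA.

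The share of reads that fell in the amplicon was also uneven. It was 1.72%, 1.71% and 0.677% of all cytosine calls in negative siRNA replicates 1 to 3, 0.906%, 1.07% and 0.955% in DNMT3a siRNA and 1.02%, 1.06% and 1.02% in DNMT3b siRNA. The 2 negative siRNA libraries with the largest shares had the highest levels of all 9. The other library of their group had the smallest share and the lowest level of its group. Total calls were 27193672 to 32543683 per library. The part of the read share in the differences between groups was not tested.

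**Figure D3:**
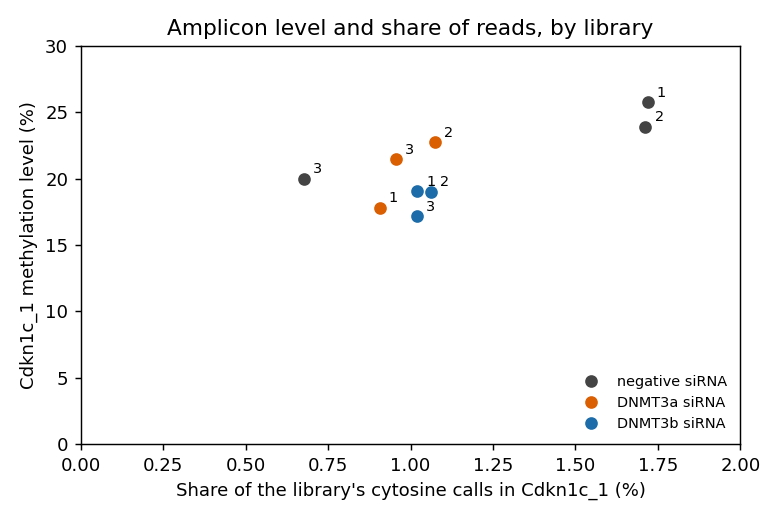
Level of the Cdkn1c_1 amplicon against the share of the library's cytosine calls that fell in it, 1 point per library with its replicate number. Negative siRNA replicates 1 and 2 sit apart at 1.72% and 1.71% of calls and at levels of 25.8% and 23.9%, while the other 7 libraries have 0.677% to 1.07% of calls.

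With DNMT3b siRNA the Cdkn1c promoter was lower than with negative siRNA in every library, although the difference did not pass the test. The comparison asks whether the amplicon changes when DNMT3b is targeted. The DNMT3b siRNA replicates were at 19.1%, 19.0% and 17.2% (mean 18.4% ± 1.06), all below the lowest negative siRNA library at 20.0%. The difference was -4.81 points ± 1.81 (SE), with an exact two-sided permutation p = 0.10, the smallest that 3 against 3 libraries can give. On reads summed over the amplicon, edgeR's quasi-likelihood test gave a log2 odds ratio of -0.47 ± 0.18 (SE) and an adjusted p = 0.315 over the 26 regions (unadjusted p = 0.0325). This unadjusted edgeR p was 0.111, 0.0844 and 0.00667 without negative siRNA replicates 1, 2 and 3. Without DNMT3b siRNA replicates 1, 2 and 3 it was 0.0686, 0.0582 and 0.0848. Regions with an unadjusted p under 0.05 were 15.4% of the 26, and 0.0% passed after adjustment. The difference was -3.53 points without replicate 1 of the negative siRNA and -6.42 without its replicate 3, the one with the fewest reads in the amplicon.

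The lower level with DNMT3b siRNA extended over all 3 parts. The first part was at 29.0%, 28.9% and 24.9% against 35.5%, 33.4% and 29.6% in negative siRNA, a difference of -5.27 points ± 2.20 (SE). The middle part was at 8.49%, 8.68% and 8.23% against 14.3%, 11.8% and 9.34% (-3.34 ± 1.43). The last part was at 16.9%, 16.8% and 16.1% against 24.5%, 23.3% and 18.2% (-5.42 ± 1.94). In each part the groups did not overlap, with an exact permutation p = 0.10 and an adjusted p = 0.15 over 6 tests of parts and their differences. Without negative siRNA replicate 1 the middle part differed by -2.10 points. The DNMT3b libraries were close together in the middle and last parts, and their replicate 3 was the lowest in the first. The step from the middle to the last part was smaller with DNMT3b siRNA, at 8.14 ± 0.28 against 10.2 ± 1.32 points, again without overlap and with an exact permutation p = 0.10 (adjusted p = 0.15).

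**Figure D4:**
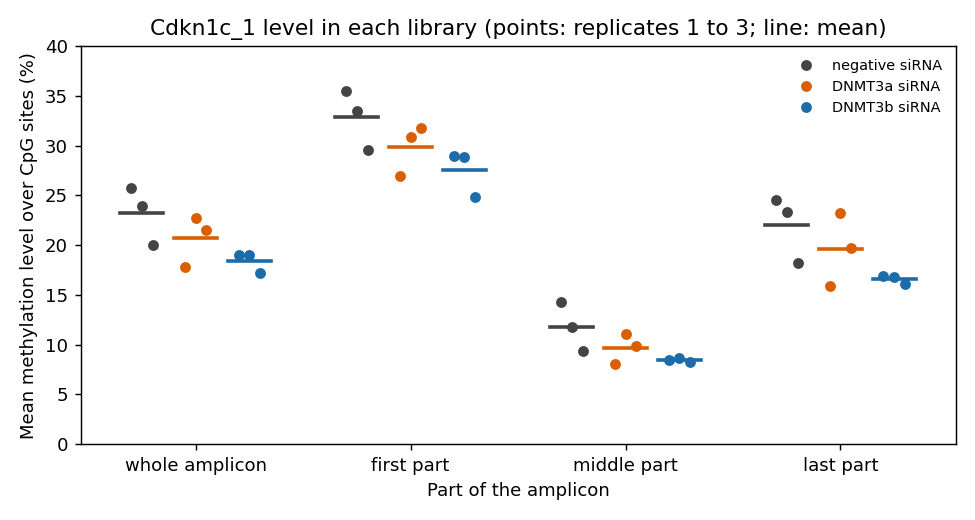
Mean methylation level over the CpG sites of the whole amplicon and of its parts, with 1 point per library and a line at the mean of each group. The DNMT3b siRNA points lie below all negative siRNA points in each part, and the DNMT3a siRNA points overlap with both other groups.

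By site, 48 of 52 were lower in mean with DNMT3b siRNA, where 68.7% of all 310 tested sites and 64.0% of the 258 outside the amplicon were lower. The median difference was -4.72 points over the 52 sites and -0.24 over all sites, and single sites differed by -9.74 to 0.75 points. Groups did not overlap at 24 of the 52 sites, all lower, against 18.4% of all sites and 12.8% of those outside the amplicon (2.26% of all sites were higher without overlap). Sites of an amplicon are not independent, so these shares describe 1 region and not many. With edgeR 0 of 52 sites passed after adjustment over all 310 (background 0.0%), while 23 had an unadjusted p under 0.05, all lower. Of all sites 10.0% were lower at that p and 0.968% higher, and of those outside the amplicon 3.1% were lower. With limma and with DESeq2 0 sites passed as well, and 19 and 24 had an unadjusted p under 0.05. With the replicate number as a block the 23 became 15. Without negative siRNA replicate 1 or replicate 2 they became 3, without DNMT3b siRNA replicates 1, 2 or 3 they became 12, 11 and 7, and without negative siRNA replicate 3 they were 33.

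The sites with the smallest p lay around the low middle. Offset 237 was at 8.52%, 8.31% and 8.06% with DNMT3b siRNA and at 15.9%, 11.8% and 11.7% with negative siRNA. Its groups did not overlap, and its 3 DNMT3b values were within a point of each other (log2 odds ratio -0.73 ± 0.21 SE, edgeR adjusted p = 0.441). Offset 195, within the low stretch printed above, was at 4.58%, 3.76% and 6.91% against 10.6%, 10.3% and 7.14%, so that DNMT3b replicate 3 came close to negative replicate 3 (-0.96 ± 0.27, adjusted p = 0.441). Offset 190 was at 4.96%, 5.43% and 5.51% against 9.26%, 7.81% and 7.73%, without overlap (-0.68 ± 0.23, adjusted p = 0.441).

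In points, the lowest values against negative siRNA stood at highly methylated sites, named after their values were seen. Offset 24 was at 37.7%, 31.0% and 28.5% with DNMT3b siRNA, or -9.74 points, with 142 to 400 reads. Offset 287 was at 23.0%, 24.4% and 23.2% against 39.7%, 33.1% and 26.6% (-9.56 points, 3192 to 7987 reads), and its neighbour offset 291 at 22.9%, 24.7% and 22.7% against 38.7%, 33.6% and 26.7% (-9.56 points). Both lie in the CpG-dense stretch at 258 to 315. Over that stretch DNMT3b siRNA was at 20.1%, 20.6% and 20.3%, where negative siRNA was at 30.8%, 28.8% and 22.6%. At the start of the low stretch, in contrast, offsets 151, 153 and 160 differed by -0.02, 0.75 and 0.68 points, and their groups overlapped. Over the whole low stretch the groups overlapped too, at 7.31%, 7.66% and 6.51% with DNMT3b siRNA. Negative siRNA was at 11.6%, 8.87% and 7.53% there. In the first high stretch, DNMT3b siRNA was at 27.8%, 28.4% and 24.4%. Negative siRNA was at 34.7%, 32.6% and 27.8%, again with overlap. The means were lower with DNMT3b siRNA in both, by -2.18 points in the low stretch and -4.82 in the first high stretch.

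**Figure D5:**
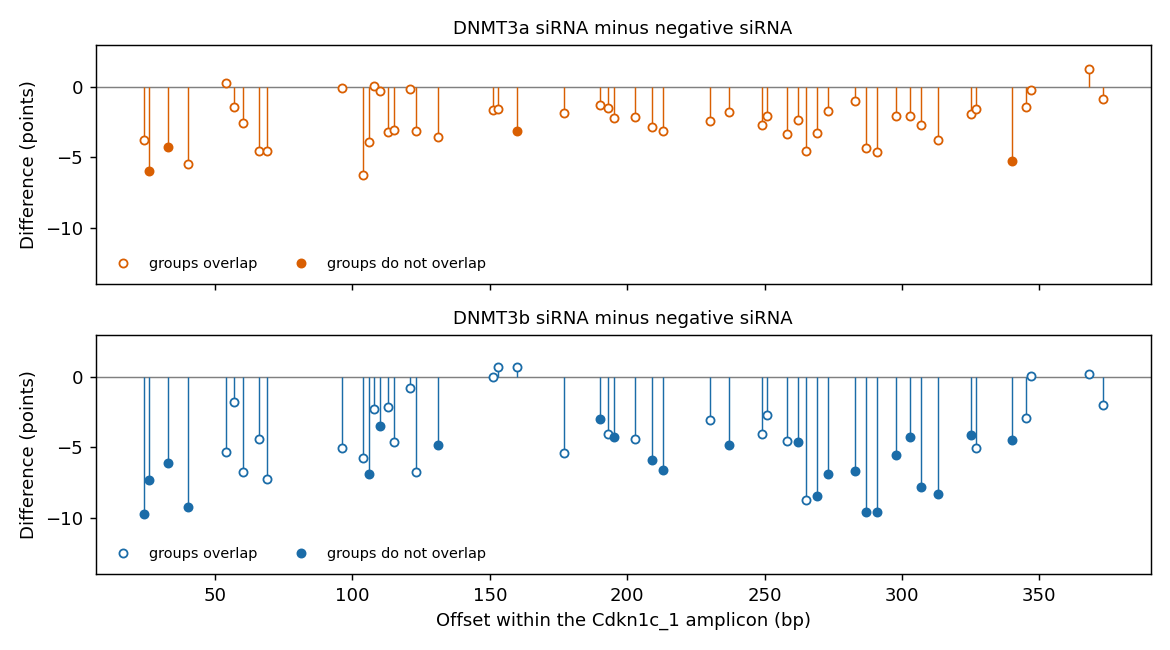
Difference in mean methylation level from negative siRNA, in points, at each CpG site for DNMT3a siRNA (top) and DNMT3b siRNA (bottom). Filled points mark sites whose groups do not overlap, 4 with DNMT3a siRNA and 24 with DNMT3b siRNA, and both panels share the same 3 negative siRNA libraries.

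With DNMT3a siRNA the amplicon was at 17.8%, 22.8% and 21.5% (mean 20.7% ± 2.56), and it overlapped with negative siRNA. Replicate 1 was below every negative library, and replicates 2 and 3 lay within their range. The difference was -2.54 points ± 2.26 (SE), with an exact two-sided permutation p = 0.40, so it was of the size of the spread between libraries. The summed reads gave a log2 odds ratio of -0.22 ± 0.18 (edgeR adjusted p = 0.646 over the 26 regions). The difference was -1.11 points when replicate 1 of DNMT3a siRNA was left out, and -1.26 and -4.16 when replicates 1 and 3 of the negative siRNA were.

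The parts with DNMT3a siRNA were at 29.9% ± 2.56, 9.64% ± 1.54 and 19.6% ± 3.68, against 32.8% ± 3.01, 11.8% ± 2.47 and 22.0% ± 3.33 in negative siRNA. The groups overlapped in each part (-2.94, -2.16 and -2.42 points, exact permutation p = 0.30, 0.30 and 0.50, adjusted p = 0.75 for each over the 6 tests). These values moved with single libraries. Without DNMT3a siRNA replicate 1 the first, middle and last parts differed by -1.49, -1.35 and -0.55 points. They differed by -1.61, -0.92 and -1.17 without replicate 1 of the negative siRNA, and by -4.57, -3.39 and -4.31 without its replicate 3. The last part differed by -4.22 without DNMT3a siRNA replicate 2. By site, 49 of 52 were lower in mean, where 60.6% of all sites and 53.9% of those outside the amplicon were. That count was 38 without DNMT3a siRNA replicate 1. The median difference was -2.39 points over the 52 sites and -0.09 over all sites. Groups did not overlap at 4 of 52 sites, all lower, or 7.69%, while 10.6% of all sites were without overlap and lower and 4.52% higher, so the count was no larger than the background.

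With edgeR 0 of 52 sites passed for DNMT3a siRNA (background 0.0%), and 1 had an unadjusted p under 0.05, against 8.06% of all sites in the lower direction and 4.52% in the higher. With limma and DESeq2 0 sites passed, and 1 had such a p with each. Without negative siRNA replicate 3 edgeR gave 4 such sites. The 1 site was offset 340, a CGT site, at 8.27%, 13.1% and 10.5% with DNMT3a siRNA and at 15.5%, 16.6% and 15.6% with negative siRNA. All DNMT3a values lay below all negative ones (log2 odds ratio -0.68 ± 0.20 SE, edgeR adjusted p = 0.313, 366 to 985 reads). With DNMT3b siRNA the same site was at 11.2%, 11.7% and 11.5%. The next smallest p were at offset 160, at 4.42%, 4.08% and 2.38%, and offset 66, at 16.5%, 19.7% and 19.4% (adjusted p = 0.455 and 0.490). At offset 160 the groups did not overlap, with 93 to 202 reads.

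DNMT3a and DNMT3b siRNA were also set against each other. The amplicon was 2.27 points ± 1.60 (SE) higher with DNMT3a siRNA, with overlapping groups and an exact two-sided permutation p = 0.30 (edgeR log2 odds ratio 0.25 ± 0.18, adjusted p = 0.515). It was 3.70 points higher without DNMT3a siRNA replicate 1 and 1.23 without replicate 2. The parts differed by 2.33, 1.17 and 3.01 points (exact permutation p = 0.30, 0.40 and 0.40, adjusted p = 0.60 for each). Without DNMT3a siRNA replicate 1 they differed by 3.79, 1.99 and 4.87 points. The middle and last parts differed by 0.47 and 1.20 without DNMT3a siRNA replicate 2. The first part differed by 1.38 without DNMT3a siRNA replicate 3 and by 0.98 without DNMT3b siRNA replicate 3. A different effect of the 2 siRNA pools on this amplicon was therefore not shown.

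Of the 52 sites, 8 were lower in mean with DNMT3a than with DNMT3b siRNA, where 41.6% of all sites were. That count was 3 without DNMT3a siRNA replicate 1, 13 without its replicate 2, 12 without its replicate 3 and 13 without DNMT3b siRNA replicate 3. Groups did not overlap at 5 sites, all higher with DNMT3a siRNA, or 9.62%, against 7.1% of all sites in that direction and 6.45% in the other. With edgeR 0 of 52 passed (background 0.0%) and 2 had an unadjusted p under 0.05, both higher, against 4.84% of all sites higher and 2.58% lower. With the replicate number as a block, 1 site had such a p and was lower. With limma and DESeq2 0 passed and 2 had such a p. The 2 sites were offset 283, at 19.9%, 27.4% and 23.4% with DNMT3a siRNA and 18.1%, 18.1% and 17.6% with DNMT3b siRNA, and offset 237, at 9.23%, 12.3% and 12.6% with DNMT3a siRNA beside the DNMT3b values given above. At both the groups did not overlap (log2 odds ratio 0.49 ± 0.20 and 0.49 ± 0.21 SE, adjusted p = 0.550 for both). They depended on single libraries, since 0 sites had such a p without DNMT3a siRNA replicates 2 or 3, or DNMT3b siRNA replicates 1 or 2, and 11 had it without DNMT3a siRNA replicate 1. Next was offset 54, at 25.7%, 30.5% and 28.8% against 23.9%, 19.9% and 24.4% (adjusted p = 0.623).

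Differences were also taken by the base after the CpG. With DNMT3b siRNA the means against negative siRNA differed by -5.99 points ± 2.66 (SE) at CGA sites, -4.75 ± 1.72 at CGC, -4.14 ± 1.81 at CGG and -5.06 ± 1.63 at CGT sites. With DNMT3a siRNA they differed by -2.46 ± 3.34, -2.52 ± 2.07, -2.50 ± 2.04 and -2.79 ± 2.43 points. The differences between classes were not tested. Both sets use the same 3 negative siRNA libraries.

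Whether the amplicon stood apart from the other promoters was tested on its level less the mean of the other 25 regions in the same library. That quantity was -11.8, -12.5 and -18.3 points in negative siRNA, -17.7, -15.8 and -13.7 in DNMT3a siRNA and -16.6, -16.9 and -18.3 in DNMT3b siRNA. The groups overlapped. The change with DNMT3b siRNA was -3.07 points ± 2.10 (SE, exact permutation p = 0.30), and that with DNMT3a siRNA was -1.54 ± 2.34 (exact permutation p = 0.60). The mean of the other regions was itself lower with DNMT3b siRNA, at 35.7% ± 0.24 against 37.4% ± 0.92. That difference was -1.74 points ± 0.55 (SE), also without overlap and with an exact permutation p = 0.10. The separation from negative siRNA was therefore not particular to Cdkn1c_1, and 21 of the 26 regions were lower in mean with DNMT3b siRNA. In points the difference at Cdkn1c_1 ranked 3 from the lowest of the 26 regions with DNMT3b siRNA and 6 with DNMT3a siRNA. The change relative to the other regions rested on single negative libraries: for DNMT3b siRNA it was -1.88 points without replicate 1 and -5.09 without replicate 3. For DNMT3a siRNA it was -0.35 and -3.57 without these, -0.70 without negative replicate 2, -0.56 without DNMT3a replicate 1 and -2.55 without DNMT3a replicate 3.

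No difference between groups was shown at the other Cip/Kip promoters either. Cdkn1a_1 was 4.93 points ± 4.24 (SE) higher in mean with DNMT3b siRNA, at 57.0%, 69.5% and 69.1% against 62.4%, 58.8% and 59.7%, with overlapping groups (exact permutation p = 0.40), and 0.50 points lower with DNMT3a siRNA. Cdkn1b_1 was at 0.24% to 0.35% in all 9 libraries, which is at the level of cytosines outside CpG in the Cdkn1c amplicon. Set against these 2 regions alone, the change at Cdkn1c_1 with DNMT3b siRNA was -7.28 points (exact permutation p = 0.20). That value includes the higher mean of Cdkn1a_1, a region with 5 tested CpG sites.

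Over the 9 libraries, the region whose level was most like that of Cdkn1c_1 was Tnnt2_2, of the cardiac troponin T gene, with Pearson r = 0.698 (exact permutation p = 0.0395, adjusted p = 0.764 over 25 regions) and Spearman rho = 0.75 (exact permutation p = 0.0255, adjusted p = 0.637). Without negative siRNA replicates 1 and 2, the libraries farthest from the median, its r was 0.461, so the relation rests in part on them. Next were Myh7b_1 (r = 0.489, rho = 0.467) and Myh6_1 (r = 0.485, rho = 0.65), myosin heavy chain genes, with exact permutation p = 0.181 and 0.190 for r, 0.213 and 0.0666 for rho, and adjusted p of 0.764 and 0.694. Their r without those 2 libraries was 0.307 and 0.710. With the group means taken out, r over the 9 libraries was 0.669 for Tnnt2_2, 0.180 for Myh7b_1 and 0.314 for Myh6_1. No region passed after adjustment.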

How the data were processed

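Targeted bisulfite libraries of 9 cultures were used, 3 per group, grouped by their titles. Per the submitters' processing notes, FastQC, Bismark, Bowtie2 and mm10 were used (versions not given in the sources used here). The files hold, per the file headers, the authors' coverage, a count of reads per cytosine, and the percent of these reads with C or T. Coverage times percent was whole within 0.01 reads for 23884 of 23884 values and was used as methylated counts.

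Sites with at least 30 reads in all 9 libraries were tested together, over all regions, with edgeR 4.0.16 in R 4.3.3 (quasi-likelihood, a coefficient per library, no replicate block, two-sided, Benjamini-Hochberg, called at an adjusted p under 0.05). Region tests used summed counts. For levels, exact permutation tests (two-sided) were used. Nothing states that the libraries came from separate litters, so p-values measure the spread between them. Alternatives were limma 3.58.1 (prior count 2), DESeq2 1.42.0, coverage minimums of 10 and 100, sites between 2% and 98%, a fit to 6 libraries, the block, other summaries of the amplicon and leaving out each library. The edgeR, limma and DESeq2 site tests were tested on simulated data. The simulated sites were independent, and their changes were larger than those at the named sites of the amplicon. The simulation therefore does not cover smaller changes shared along an amplicon. Site deviations of same-numbered libraries had r = 0.404, 0.197 and 0.124 between DNMT3b and negative siRNA and 0.332, 0.287 and 0.166 between DNMT3a and DNMT3b siRNA, and 0.465, -0.192 and -0.233 between DNMT3a and negative siRNA. Between DNMT3a and DNMT3b siRNA, 6 of 6 libraries had their highest r with their own number. That held for 3 of 6 between DNMT3b and negative siRNA, and for 2 of 6 between DNMT3a and negative siRNA. As a weak hint from the data, the numbers may pair the libraries between DNMT3a and DNMT3b siRNA. Between DNMT3b and negative siRNA the pairing is unclear. The highest r of all was between different numbers, at 0.794 for negative siRNA replicate 2 with DNMT3a siRNA replicate 3. The main tests are unpaired in all 3, and the block is an alternative.

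Of the sites, the 3 smallest p per comparison, the 3 highest and 3 lowest levels in negative siRNA, the first and last, and those left out are named, others after their values were seen. The 3 regions most correlated with the amplicon are named. Members and lists were chosen with earlier results of these data known.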

Additional observations from a re-analysis of the deposited data

How the results depend on the processing

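The direction of the amplicon's level, of its 3 parts, of its region test and of the 3 sites with the smallest p in each comparison was the same under every alternative run for them (other named sites were not recomputed), and 0 of 52 sites passed the adjusted threshold in each comparison, with edgeR under every setting and with limma and DESeq2. The counts of sites with an unadjusted p under 0.05 moved more. With the replicate block they were 15 in place of 23 for DNMT3b against negative siRNA and 1 in place of 2 for DNMT3a against DNMT3b siRNA. That 1 site was another one and was lower with DNMT3a siRNA. The 2 sites it replaced, offsets 283 and 237, had an edgeR p of 0.0527 and 0.0748 with the block. The block changed no other call. For DNMT3a against negative siRNA, where the numbers did not pair the libraries, it left the count at 1. Over single libraries left out, these counts ranged from 1 to 4 for DNMT3a against negative siRNA, 3 to 33 for DNMT3b against negative siRNA and 0 to 11 for DNMT3a against DNMT3b siRNA, and the count of sites lower in mean in the last comparison from 3 to 13, an alternative added after seeing the data. The cause was not tested. With 3 libraries per group, exact tests cannot give a p below 0.10, or 0.25 when paired (the paired level gave exact permutation p = 0.25 for DNMT3b against negative siRNA and 0.50 for DNMT3a against DNMT3b siRNA), so they say nothing of stability. Sites near offsets 177, 368 and 373 rest on as few as 63 to 79 reads in a library.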
